A study of Homo sapiens with 36 samples.

Results

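MicroRNA genes were examined in ribosome footprint libraries of WiT49, an established cell line from an anaplastic Wilms tumor, a childhood kidney cancer. A gene was included when GENCODE release 29 types it as a microRNA gene and its counts summed to at least 20 over the 18 footprint libraries. This left 333 of 1881 microRNA genes, in tables of 43582 genes. The genes were thus selected on measured counts in these same libraries, so their abundance is a description and not a test. MIR3187, MIR4721 and MIR636 stood just inside the limit with 20 counts each, and MIR632, MIR6797 and MIR6874 just outside it with 19. The median gene had a sum of 164 counts, and 96 genes reached 1000 or more. The 333 genes held 2153751 of the 2156997 microRNA counts.

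The drug was actinomycin D at 2 nM, a DNA-binding inhibitor of RNA synthesis, and control cells received the vehicle DMSO. Exposure lasted 6 h or 72 h, or extended over 2 weeks as 2 cycles of 7 days, each made of 3 days of exposure followed by 4 days without. Every group had 3 footprint libraries, depleted of ribosomal RNA and built with a kit for small RNA, and 3 libraries of total RNA. All groups are the same unmodified cell line, and the labels do not say that the 3 libraries of a group came from separate cultures, so p-values measure the spread between libraries, which may be technical. In such bulk samples, fewer cells of a kind and less RNA per cell cannot be told apart. Markers were read in the DMSO libraries of total RNA at 6 h and 72 h. The Wilms tumor and nephron progenitor markers WT1, LIN28B, IGF2, HMGA2 and NCAM1 were at 1 CPM (counts scaled to the library total) or more in each of them, whereas SIX2, EYA1, CITED1, PAX2, SALL1 and MEOX1 were not. Of 10 markers of other cell types, the stroma markers COL1A1 (354 to 574 CPM) and PDGFRB (35.4 to 46.7 CPM) were at that level in each. PTPRC, CD3E, CD68, PECAM1, VWF, ALB, UMOD and AQP2 were not.

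MicroRNAs are short RNAs cut from a hairpin by DROSHA and then DICER1 and loaded into an Argonaute protein, which they guide to messenger RNAs. Bases 2 to 8 of the mature strand, the seed, do most of the target recognition, so genes that share a seed share many targets. Kidney and its tumors express let-7, MIR10, MIR17HG-cluster and MIR21 genes, among others. A small RNA kit ligates adapters to any short RNA of fitting size, so a microRNA count in a footprint library is not by itself a measure of ribosome occupancy.

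The mature sequences of the genes that carried most counts or that differ below are printed from RefSeq (GRCh38.p14), with the seed in capitals. They are arranged by seed because the tables count whole genes, and genes with the same or nearly the same mature sequence are hard to separate. RefSeq mature sequences were matched for 316 of the 333 genes, and 17 (MIR6087, MIR320A, MIR151A, MIR30B, MIR30D, MIR483, MIR505, MIR598, MIR636, MIR937, MIR1254-1, MIR1254-2, MIR3609, MIR3648-1, MIR6723, MIR6783 and MIR6847) had no match. The seed CAGUGCA, in 3 genes with 529283 counts, was almost entirely MIR148A. GAGGUAG was carried by all 12 let-7 genes including MIR98, with 334424 counts. AUUGCAC belonged to MIR92A1, MIR92A2, MIR92B, MIR25 and MIR32, with 119403 counts. UCAAGUA marked the MIR26 genes, ACCCGUA the MIR99 and MIR100 genes, and UCACAGU the MIR27 genes.
MIR148A: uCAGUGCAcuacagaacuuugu
MIR148B: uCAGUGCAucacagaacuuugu
MIR152: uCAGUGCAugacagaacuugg
MIRLET7A2: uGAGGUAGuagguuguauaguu
MIRLET7C: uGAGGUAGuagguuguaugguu
MIRLET7E: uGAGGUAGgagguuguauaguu
MIRLET7F2: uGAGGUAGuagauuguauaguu
MIR92A2: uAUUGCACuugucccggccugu
MIR26A2: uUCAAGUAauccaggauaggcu
MIR99A: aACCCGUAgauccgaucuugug
MIR100: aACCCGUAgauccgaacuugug
MIR27A: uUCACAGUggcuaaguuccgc
MIR27B: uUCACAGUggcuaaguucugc
MIR183: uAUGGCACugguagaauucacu
MIR21: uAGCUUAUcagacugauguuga
MIR1246: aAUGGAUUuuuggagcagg
MIR4426: gAAGAUGGacguacuuu

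Counted from the 5′ end, the MIR148A and MIR148B strands differ by C9U and U10C, and MIR27A differs from MIR27B by C19U alone. The let-7a strand of MIRLET7A2 differs by A19G from MIRLET7C, by U9G from MIRLET7E and by G12A from MIRLET7F2. MIR99A and MIR100 differ by U16A. All of these lie outside the seed.

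The share of a library taken by microRNA genes ranged from 1.18% to 71.4%, and the groups overlapped at each time point. At 6 h it was 71.4%, 58.5% and 16.1% with actinomycin D and 4.67%, 45.1% and 60.8% with DMSO (means 48.7% ± 28.9 and 36.9% ± 29, SD, n = 3 each). At 72 h the shares were 2.11%, 3.45% and 2.80% against 1.18%, 4.00% and 5.89%. At 2 weeks they were 3.47%, 5.42% and 5.07% against 1.87%, 2.98% and 8.65%. The 6 h libraries thus spread over more than the distance between the treatments, and the 2 later tables held far smaller microRNA shares. Two-sided exact permutation tests gave p = 0.6 at 6 h, 0.6 at 72 h and 1 at 2 weeks, where 3 libraries against 3 cannot go below 0.1. Leaving out DMSO replicate 1 at 6 h turned the difference to -4.31 percentage points. Total counts per library ran from 152556 to 1281039, and all shares below rest on these depths. Several libraries stood apart from their groups in the percent of all counts held by microRNA genes without the structural copies defined below. These were DMSO replicate 1 at 6 h (1.11% against 42.9% and 59.2%), actinomycin D replicate 3 at 6 h (13.3% against 70.8% and 57.3%), actinomycin D replicate 3 at 72 h (1.78% against 0.191% and 0.220%) and DMSO replicate 3 at 2 weeks (2.81% against 0.164% and 0.320%).

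**Figure D1:**
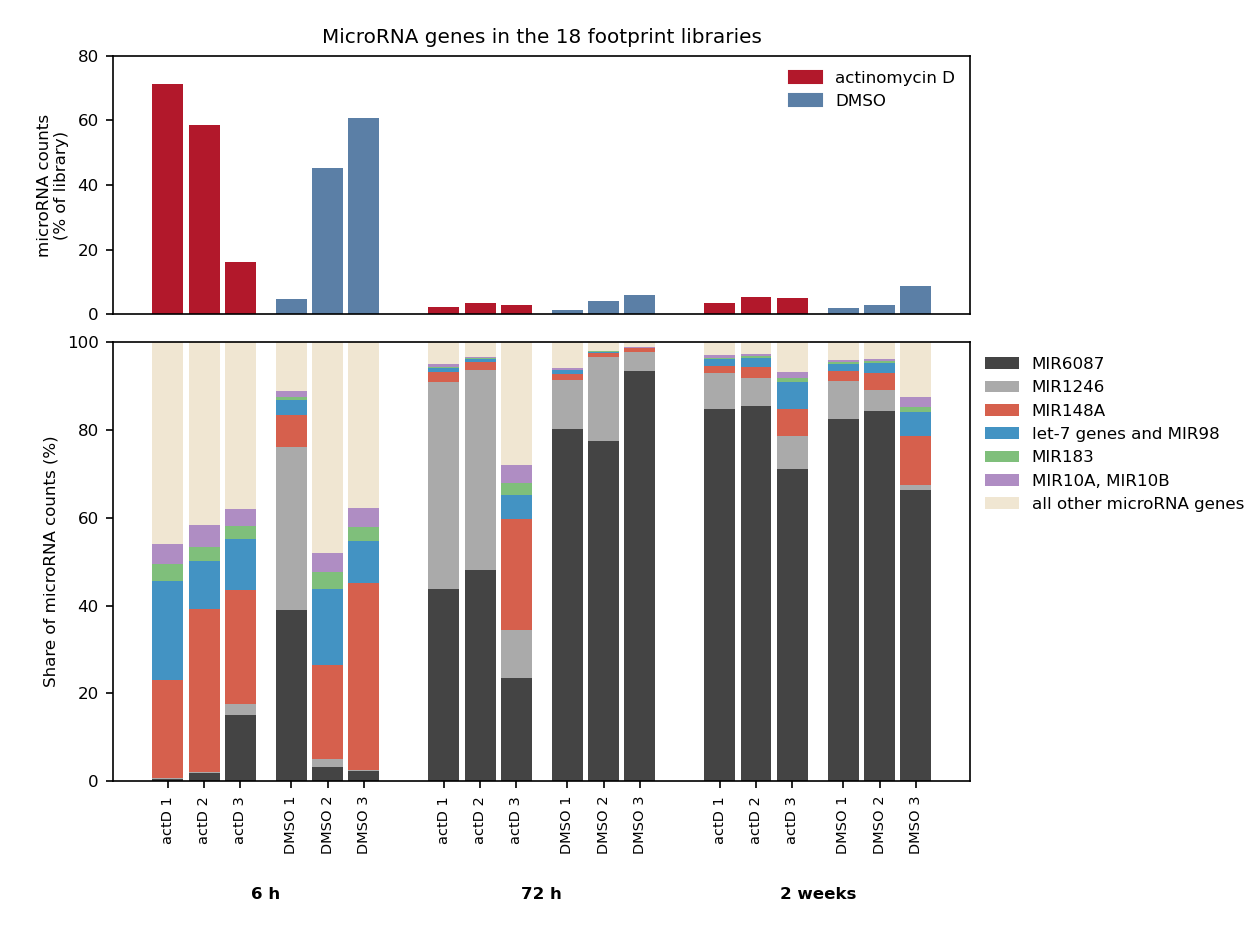
Upper panel, microRNA counts as a percent of all counts in each of the 18 footprint libraries (red actinomycin D, blue DMSO). Lower panel, the share of microRNA counts taken by the leading genes in the same libraries. MIR6087 takes most of the microRNA counts in the DMSO libraries at 72 h and in all libraries at 2 weeks, and MIR148A and let-7 genes take more at 6 h, least in DMSO replicate 1.

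MIR6087 (GRCh38 chrX:109054542-109054590, plus strand) had the highest mean share of microRNA counts over the 18 libraries, 50.1%. MIR1246 (chr2:176600980-176601052) and MIR148A (chr7:25949919-25949986), both on the minus strand, followed with 12.1% each. Per base of the annotated gene, mean shares were 1.02% for MIR6087, 0.177% for MIR148A and 0.165% for MIR1246, so the order of MIR148A and MIR1246 depends on length. Next came MIRLET7A2 with 0.0216%, MIRLET7A3 with 0.0188%, MIRLET7A1 with 0.0169%, MIR21 with 0.0144%, MIR320A with 0.0137% and MIR92A2 with 0.0135% per base. In this order, the ranges of each pair of neighbours over the 18 libraries overlapped.

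MIR6087 and MIR1246 stand on a list of microRNA entries known to resemble structural RNA. For MIR6087 no sequence was checked. The whole 19-base mature strand of MIR1246 was found in 8 snRNA genes of the U2 kind, so reads of U2, a spliceosomal RNA, and of MIR1246 cannot be told apart by sequence. Mature strands of MIR1291, MIR664B and MIR6516 also lay whole inside a snoRNA or scaRNA gene. A list of 8 such genes (MIR6087, MIR1246, MIR3609, MIR1291, MIR664B, MIR6516, MIR3648-1 and MIR3648-2), called structural copies here, took 0.795% to 97.8% of the microRNA counts of a library. Shares were therefore also computed over the microRNA counts that remain without them.

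On that denominator MIR148A was the largest microRNA gene in all 18 libraries, with a mean share of 30.4%. MIR148A, an abundant microRNA of liver that shares its seed with MIR148B and MIR152, held 22.4%, 37.8% and 31.5% with actinomycin D and 31.3%, 22.6% and 43.7% with DMSO at 6 h. At 72 h it held 24.5%, 30.4% and 40.0% against 15.4%, 27.7% and 40.1%, and at 2 weeks 24.1%, 30.5% and 29.4% against 27%, 35.3% and 34.2%. The groups overlapped each time. The second gene never passed 7.89%, the share of MIRLET7A2 in actinomycin D replicate 3 at 2 weeks. MIRLET7A2, MIR10B, MIRLET7A3, MIRLET7A1 and MIR183 followed with mean shares of 4.14%, 4.03%, 3.75%, 3.62% and 3.37%.

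**Figure D2:**
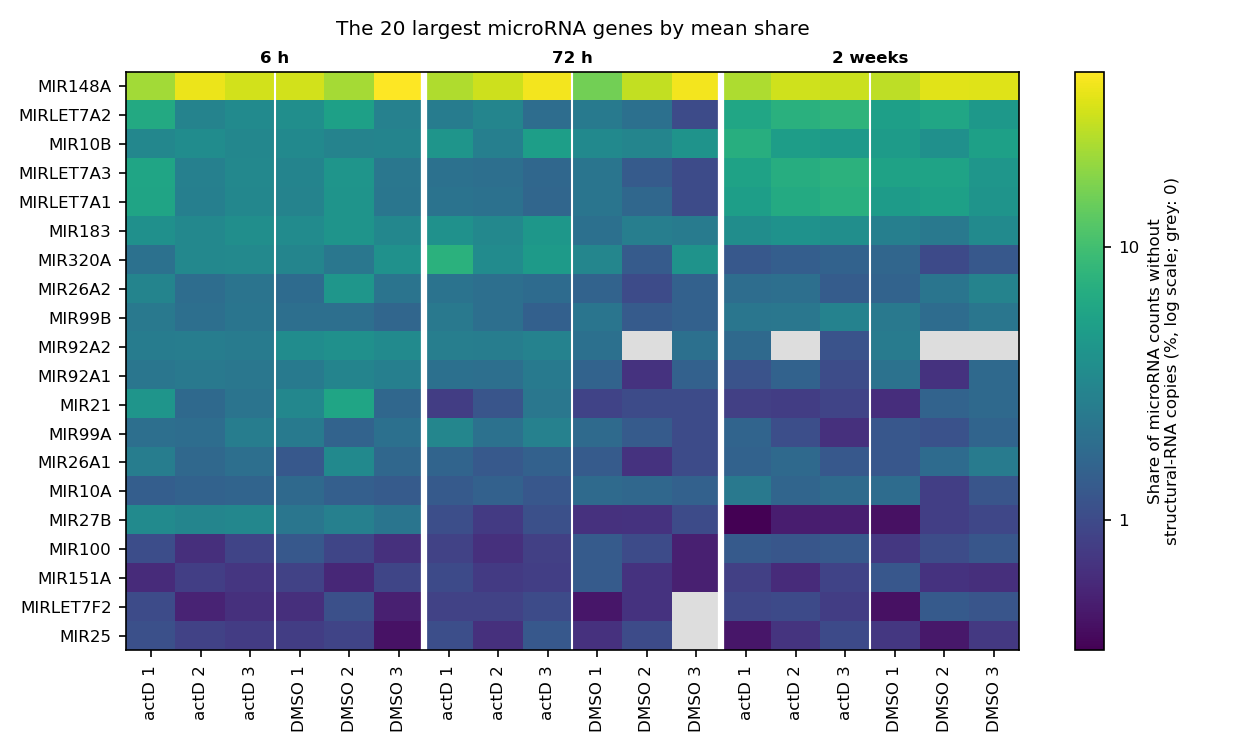
Share of microRNA counts without structural copies for the 20 genes with the highest mean share (rows) in the 18 footprint libraries (columns), on a log color scale, with grey for a share of 0. MIR148A is the brightest row in every library, and MIR92A2 is grey in 4 libraries in which MIR92A1, with the same main mature strand, is not.

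After 6 h of actinomycin D no microRNA gene passed the test, and the direction of the set rested on single libraries. On the scale of the whole library (TMM normalization), 184 of the 186 microRNA genes tested had a positive log2 fold change, with a median of 1.36 and a median SE of 1.58, against a median of 0.11 over all 1212 genes tested. The tested genes are those that reached a count minimum in enough libraries, so these counts describe that subset and not all 333. Without actinomycin D replicate 1, 104 of 195 were higher and 91 lower, with a median of 0.04. The median was 0.39 without DMSO replicate 1 and 2.21 without DMSO replicate 3. The quasi-likelihood test of edgeR, with p-values adjusted over all genes by the method of Benjamini and Hochberg, called 0 of 186, and 0 had an unadjusted p under 0.05. Over all genes it called 0 of 1212 (0%), with 38 (3.14%) at an unadjusted p under 0.05. Scaled to the microRNA counts of each library, 154 of 186 were higher and 32 lower, with a median of 0.37, and 0 were called. Without DMSO replicate 1 that became 99 higher and 87 lower, with a median of 0.02. The largest negative value on that scale was that of MIR1246, with a log2 fold change of -3.77 (SE 1.92, adjusted p = 0.634). MIR1246 held 0.178%, 0.280% and 2.42% of microRNA counts with actinomycin D and 37.1%, 1.80% and 0.381% with DMSO, so DMSO replicate 1 alone stood high.

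Some genes nevertheless had groups that did not overlap at 6 h as a share of microRNA counts. Among the 167 microRNA genes with a mean of at least 20 counts, 16 lay higher with actinomycin D in every library and 1 lay lower. Over all 756 genes with that mean, these microRNA genes included, 2.12% lay higher and 1.85% lower on the same scale. The 2.12% consists of the same 16 microRNA genes, so no other gene lay higher. For other genes this scale also carries the microRNA share of the library, so the background says little about the 16. Without 1 library the count of 17 became 29 (without actinomycin D replicate 1), 24 (without actinomycin D replicate 2), 35 (without actinomycin D replicate 3), 26 (without DMSO replicate 1), 53 (without DMSO replicate 2) or 35 (without DMSO replicate 3). Without structural copies in the denominator, 11 of 164 lay higher and 11 lower. Over all 756 genes, these included, 12 (1.59%) lay higher and 19 (2.51%) lower.

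MIR27A, MIR7706 and MIR200B had the largest differences among those 16. MIR27A, from the cluster with MIR23A and MIR24-2 on chromosome 19, had 5920, 2075 and 349 counts with actinomycin D and 0, 1300 and 0 with DMSO. As a share of microRNA counts these were 0.647%, 0.809% and 0.597% against 0.413% in DMSO replicate 2, and the gene is listed at 0 in the other two. MIR27B, which differs from it by 1 base, had 119 and 6154 counts in those 2 libraries, and MIR24-2 had 17 and 1540. The fitted log2 fold change of MIR27A, 2.31 on the microRNA scale, had an SE of 2.14 (adjusted p = 0.634, edgeR).

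MIR7706, inside AKAP13 on the same strand, took 0.148%, 0.169% and 0.193% against 0.0179%, 0.0562% and 0.112%. MIR200B, of the epithelial MIR200 family, took 0.0109%, 0.0113% and 0.0120% against 0, 0.00667% and 0.00916%, on 7 to 100 counts with actinomycin D. The only gene on the lower side was MIR1293, inside LIMA1, with 0.0203%, 0.0195% and 0.0257% against 0.0269%, 0.0432% and 0.0342%. None of these 3 was called either.

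MIR92A1 and MIR92A2, which carry the AUUGCAC seed, lay lower at 6 h and higher at 72 h, as a share without structural copies. MIR92A2, of the X-linked paralog of the MIR17HG cluster, held 2.57%, 2.65% and 2.54% with actinomycin D and 3.59%, 3.87% and 3.46% with DMSO at 6 h. At 72 h it held 2.67%, 2.62% and 2.88% against 2.01%, 0 and 2.03%, on 40, 24 and 357 counts against 9, 0 and 4. MIR92A1, which has the same main mature strand and is not a separate measurement, lay lower at 6 h (2.31% ± 0.0638 against 2.75% ± 0.255, SD, n = 3) and higher at 72 h (2.14% ± 0.273 against 1.25% ± 0.502). The 5 genes with this seed together held 6.08% ± 0.195 against 7.29% ± 0.550 at 6 h and 6.27% ± 0.557 against 3.43% ± 1.34 at 72 h, without overlap at either. At 2 weeks they held 3.11% ± 0.591 against 3.19% ± 2.33, with overlap. In that sum MIR92A2 is listed at 0 in actinomycin D replicate 2 and in DMSO replicates 2 and 3. MIR92A1 had 75.4, 20.8 and 525 TMM-scaled CPM in those libraries, so this overlap cannot be set beside the 2 earlier times. The 72 h sum also holds such a zero, for MIR92A2 in DMSO replicate 2, where MIR92A1 had 6.27 TMM-scaled CPM. The DMSO side at 72 h thus carries the same limit. The lower sum at 6 h came from MIR92A1 and MIR92A2, since MIR25 held 0.920% ± 0.158 against 0.715% ± 0.257 and MIR92B 0.254% ± 0.0716 against 0.162% ± 0.0467, both with overlap. None of the 5 was called. The direction at 6 h depends on the scale, since the log2 fold change of MIR92A2 was 0.77 (SE 1.65) on the TMM scale and -0.13 (SE 1.16) on the microRNA scale, and those of MIR92A1 were 0.93 and 0.07. The test of a different effect at 72 h than at 6 h gave 2.37 (SE 2.30, adjusted p = 0.896, edgeR) for MIR92A2.

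The UCACAGU seed of MIR27A and MIR27B lay higher at 6 h in all 3 actinomycin D libraries, with 4.11%, 3.92% and 3.88% against 2.25%, 3.21% and 2.23%. MIR27B alone, whose share does not contain the zeros of MIR27A, held 3.46%, 3.09% and 3.16% against 2.25%, 2.78% and 2.23%. At 72 h and at 2 weeks the groups of this seed overlapped.

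At 72 h most tested microRNA genes lay higher with actinomycin D against the whole library, and 1 of them passed the test. A gene is tested when it reaches a count minimum in enough libraries, which high counts in 1 treatment can meet alone. MIR4426, for example, had 68.5, 81.3 and 79.0 TMM-scaled CPM with actinomycin D and 16.9, 15.7 and 11.6 with DMSO. The directions and calls thus describe the genes that passed this filter and are no test of the set. Of the 18 microRNA genes tested on the TMM scale, 16 had a positive log2 fold change, with a median of 2.58 against 0.07 over all 2426 genes. The median was 1.53 without actinomycin D replicate 3. At an unadjusted p under 0.05 there were 14, all higher, beside 27.3% of all genes in either direction. That number was 6 without DMSO replicate 1 and 3 without DMSO replicate 2. After adjustment 1 of 18 was called higher, and the backgrounds were 3.83% of all genes called in either direction and 1.61% called higher. The called gene was MIR4426. Without actinomycin D replicate 3 the calls were 4 of 18 (MIR4426, MIRLET7A1, MIRLET7A2 and MIR99A), beside 242 of all 2708 genes. DESeq2 called 7 of 18, and 0 were called in each of 4 fits that lacked replicate 1 or replicate 2 of one treatment.

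MIR4426 (GRCh38 chr1:192716328-192716390, plus strand) had 49, 32 and 71 counts with actinomycin D and 8, 5 and 1 with DMSO. Its log2 fold change was 2.26 (SE 0.34, adjusted p = 0.0418, edgeR). Over 11 alternatives the adjusted p ran from 0.0185 to 0.215, and 4 of them kept the call. The gene lies inside the protein-coding AL136454.1 on the same strand and opposite the lincRNA AL390957.1, so its counts cannot be assigned to the microRNA alone. At 6 h it had 2 to 10 counts and at 2 weeks 1 to 3, and its interaction of 72 h against 6 h was 0.75 (SE 0.74, adjusted p = 0.915, edgeR). As a share of microRNA counts it was 0.297%, 0.223% and 0.365% against 0.153%, 0.0581% and 0.0111%, without overlap, and on the microRNA scale its log2 fold change of 2.04 (SE 1.23) was not called (adjusted p = 0.996).

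Actinomycin D replicate 3 stood apart from the other 2 libraries of its group. MIR148A had 367, 279 and 4947 counts with actinomycin D and 69, 82 and 79 with DMSO. MIR183, from the cluster with MIR96 and MIR182 on chromosome 7, had 59, 30 and 546 counts against 9, 8 and 5. Replicate 3 exceeded the other treated libraries by far in both genes. On TMM-scaled CPM the groups of MIR148A overlapped and those of MIR183 did not. MIR148A had a log2 fold change of 2.37 (SE 1.11, adjusted p = 0.206) and MIR183 of 3.13 (SE 0.99, adjusted p = 0.101, edgeR). Without that replicate the log2 fold change of MIR148A was 0.62 and that of MIR183 was 1.58. The same library had 28681 snoRNA counts against 4495 and 2622 in the other treated libraries, and 249 microRNA genes with a count against 171 and 162. Whether this bears on the differences was not tested.

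The share of the library held by microRNA genes without structural copies gave the same picture at 72 h. It was 0.191%, 0.220% and 1.78% with actinomycin D and 0.101%, 0.137% and 0.129% with DMSO (0.732% ± 0.911 against 0.123% ± 0.0189, SD, n = 3). The groups did not overlap, and the two-sided exact permutation test gave p = 0.1, the smallest possible. Counts behind these shares were 1497, 917 and 12381 against 447, 296 and 197. The DMSO libraries of this time point thus had 197 to 447 such counts each.

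**Figure D3:**
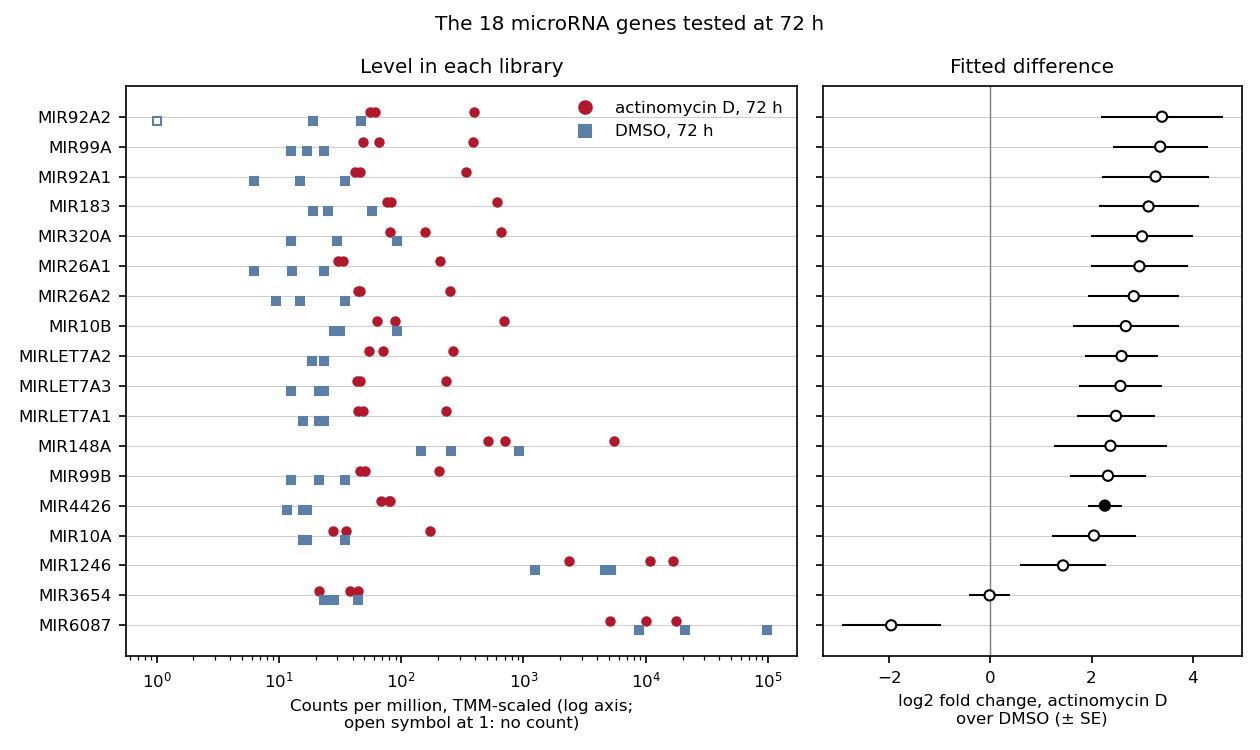
Left, TMM-scaled CPM (log axis) of the 18 microRNA genes tested at 72 h, in each of the 3 actinomycin D (red circles) and 3 DMSO libraries (blue squares). Right, the fitted log2 fold change with its standard error, filled where the adjusted p was under 0.05. MIR4426 is the filled point, and for most genes 1 red point, replicate 3, lies far to the right of the others.

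MIR6087 was the gene whose share of microRNA counts lay lower at 72 h without overlap. It took 43.7%, 48.1% and 23.5% of microRNA counts with actinomycin D and 80.2%, 77.4% and 93.3% with DMSO, without overlap. As a percent of all counts it was 0.920%, 1.66% and 0.658% against 0.948%, 3.09% and 5.5%, with overlap, and its log2 fold change of -1.96 (SE 0.98) on the TMM scale was not called (adjusted p = 0.232). MIR1246 took 47.2%, 45.5% and 10.8% against 11.2%, 19.2% and 4.43%, with overlap (log2 1.44, SE 0.86, adjusted p = 0.300, edgeR).

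With the microRNA total as library size, the test at 72 h called 0 of 18 genes, against 0.453% of all genes. Unadjusted p-values under 0.05 were found for 9 of 18, all higher, and for 3.79% of all genes. Without actinomycin D replicate 3, and likewise without DMSO replicate 2, there were 0, and without DMSO replicate 1 there were 15. Of the 26 genes with a mean of at least 20 counts, MIR148A, MIR183, MIRLET7F2 and MIR4426 lay higher without overlap and MIR6087 lower, against backgrounds of 5.99% and 0.584% of all genes. Without actinomycin D replicate 2 the count of 5 became 18, and without DMSO replicate 1 it became 24. Since MIR6087 takes most of these counts in DMSO, a lower MIR6087 share raises the share of each other gene. Without structural copies the genes on the higher side were MIR183, MIR26A2, MIR92A1, MIR92A2, MIR99A and MIRLET7F2, 6 of 23, with 0 on the lower side. For all genes, these 6 included, the same denominator gave 0.73% higher and 29.8% lower, but for other genes it also carries the microRNA share of the library.

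MIR183 held 3.94%, 3.27% and 4.41% against 2.01%, 2.70% and 2.54% on that denominator. MIR99A, a gene of the seed ACCCGUA, held 3.14%, 2.07% and 2.82% against 1.79%, 1.35% and 1.02%. MIR26A2 held 2.14%, 1.96% and 1.82% against 1.57%, 1.01% and 1.52%. MIRLET7F2 held 0.868%, 0.872% and 1.02% against 0.447%, 0.676% and 0. On this denominator replicate 3 did not stand far from the other treated libraries in these 4 genes, and the DMSO shares rested on 0 to 9 counts.

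At 2 weeks no microRNA gene passed the test, and the direction of the set turned on 1 library. On the TMM scale 12 of 44 were higher and 32 lower, with a median of -0.76 against 0.02 over all 1598 genes. Without DMSO replicate 3, 47 of 48 were higher and 1 lower, with a median of 1.44 and 9 at an unadjusted p under 0.05, all higher. The median was -1.70 without actinomycin D replicate 3, -1.46 without DMSO replicate 1 and -1.39 without DMSO replicate 2. edgeR called 0 of 44 and 0 of 1598 (0%), with 1 of 44 and 138 of 1598 (8.64%) at an unadjusted p under 0.05. On the microRNA scale it called 0 of 44 and 0.0626% of all genes, with 0 of 44 and 1.94% at an unadjusted p under 0.05. On that scale 13 were higher and 31 lower, which became 32 and 12 without DMSO replicate 3. MIR1246 was the gene with the unadjusted p of 0.00438. It took 0.285%, 0.348% and 0.375% of all counts with actinomycin D and 0.159%, 0.147% and 0.107% with DMSO, without overlap (log2 1.51, SE 0.38, adjusted p = 0.517). Over 11 alternatives its adjusted p ran from 0.193 to 0.981.

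As a share of all microRNA counts, 0 of 46 genes had groups without overlap at 2 weeks, against backgrounds of 0.137% higher and 2.75% lower. Without actinomycin D replicate 3 the count was 8, of which 7 lay lower, and it was 5, 2 and 4 without DMSO replicate 1, 2 and 3. Without structural copies 7 of 44 lay higher and 0 lower, beside 0.962% higher and 0% lower of all 728 genes. That 0.962% consists of the same 7 microRNA genes, so no other gene lay higher. That denominator ran from 1799 to 10210 counts with actinomycin D and from 955 to 20404 with DMSO. For other genes the scale carries this spread, so the background says little about the 7. Besides MIR183, with 3.67%, 3.99% and 3.73% against 2.72%, 2.40% and 3.45%, the microRNA genes on the higher side were MIR100, MIRLET7A2, MIR125B1, MIRLET7C, MIR125B2 and MIRLET7E. These names and the clusters they lie in were chosen after their values were seen.

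Those 6 genes belong to 3 clusters that each hold a MIR99 or MIR100 gene, a let-7 gene and a MIR125 gene. The cluster on chromosome 11 (GRCh38 chr11:122099757-122152308, minus strand) holds MIR100, MIRLET7A2 and MIR125B1. The cluster on chromosome 21 (chr21:16539089-16590325, plus strand) holds MIR99A, MIRLET7C and MIR125B2. The cluster on chromosome 19 (chr19:51692612-51693339, plus strand) holds MIR99B, MIRLET7E and MIR125A and spans 728 bases. MIR99A, MIR99B and MIR125A were the 3 cluster genes whose groups overlapped at 2 weeks.

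Together the 9 genes held 14.8%, 15.7% and 18.1% with actinomycin D and 12.9%, 12.1% and 11.9% with DMSO at 2 weeks. This sum includes the genes picked for non-overlap, so its separation is partly built in. The list of MIR10, MIR99, MIR100 and MIR125 genes (8 included) overlapped at 2 weeks, with 16.2%, 12.8% and 13.9% against 12.7%, 9.57% and 12.9%. The chromosome 11 and chromosome 19 clusters did not overlap, but the chromosome 21 cluster did, with 2.89%, 2.48% and 2.71% against 2.51%, 2% and 2.27%. MIRLET7A2, the most abundant of the 9 genes, held 6.00%, 7.33% and 7.89% against 5.24%, 5.97% and 4.46%. MIRLET7E held 1.11%, 1.22% and 1.39% against 0.733%, 0.571% and 0.735%. MIRLET7C held 0.945%, 0.970% and 1.46% against 0.942%, 0.657% and 0.382%, with the groups almost touching. MIR125B1 and MIR125B2, which share their main mature strand, held 0.500% ± 0.110 against 0.273% ± 0.0631 and 0.453% ± 0.134 against 0.268% ± 0.0600 (SD, n = 3).

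At 6 h and at 72 h the sum of the 9 genes overlapped between treatments, with 11.9% ± 2.89 against 11% ± 1.86 and 9.96% ± 1.33 against 7.55% ± 2.02. The chromosome 21 cluster did not overlap at 72 h, with 3.81%, 2.62% and 3.27% against 2.24%, 2.03% and 1.52%, whereas the other clusters did. MIRLET7A1 and MIRLET7A3, which give the same let-7a strand as MIRLET7A2 from other chromosomes, overlapped at 2 weeks with 6.31% ± 1.09 against 4.76% ± 0.613 and 6.68% ± 1.08 against 5.20% ± 0.734. On the scale of all microRNA counts MIRLET7A2 had a log2 fold change of 0.09 (SE 0.93, adjusted p = 0.991, edgeR) at 2 weeks, MIR183 of -0.23 (SE 0.94) and MIR100 of -0.29 (SE 0.97). On the TMM scale MIR183 had -0.50 and MIR100 -0.57, so the direction of these 2 genes depends on the denominator, whereas the other 5 had positive values on both scales.

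**Figure D4:**
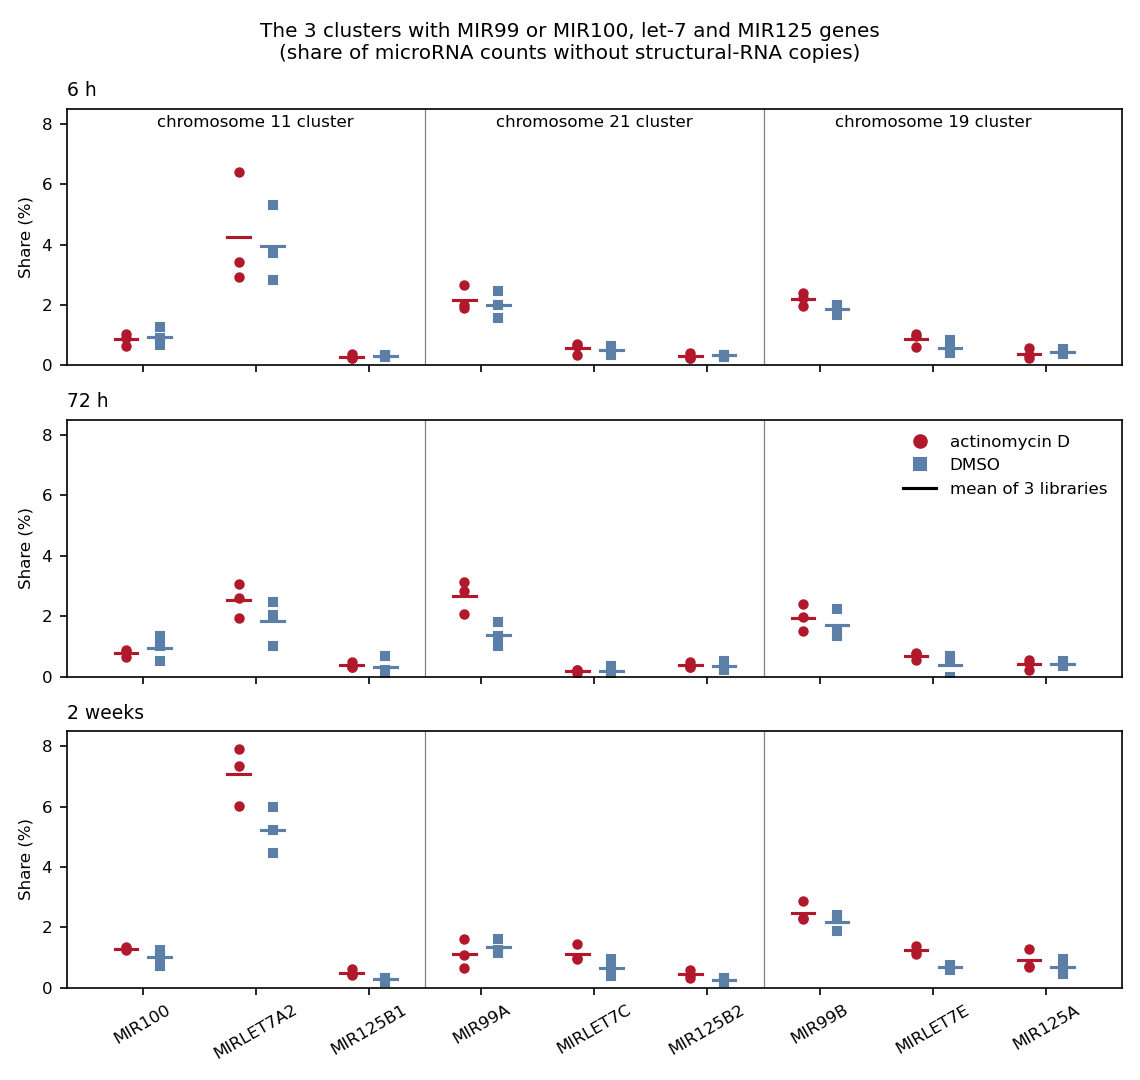
Share of microRNA counts without structural copies for the 9 genes of the 3 clusters, by time point, with 1 symbol per footprint library (red circles actinomycin D, blue squares DMSO) and a line at the mean of 3. At 2 weeks the red symbols of MIRLET7A2, MIRLET7E, MIRLET7C, MIR100, MIR125B1 and MIR125B2 lie above all blue ones, and those of MIR99A do not.

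The let-7 family, known to restrain growth genes such as HMGA2 and to be blocked by LIN28B, had 12 of 12 genes included. Of these, 11 were tested at 6 h (all higher, median log2 1.73), 3 at 72 h (all higher, 2.57) and 9 at 2 weeks (5 higher and 4 lower, 0.01), and 0 passed the test at any time. As a share without structural copies, let-7 held 16% ± 6.03 against 14.0% ± 4.20 at 6 h, 9.57% ± 0.995 against 7.15% ± 2.83 at 72 h and 25.1% ± 3.68 against 19.4% ± 2.32 at 2 weeks, overlapping each time. The MIR17HG cluster and its paralogs, a family known to promote growth, had 10 of 15 genes included and a share of 7.43% ± 0.299 against 8.73% ± 1 at 6 h and 6.76% ± 0.333 against 4.49% ± 1.38 at 72 h, without overlap. At 2 weeks its 3.56% ± 0.728 overlapped 3.81% ± 1.85. The sums at 72 h and at 2 weeks include the zeros of MIR92A2 given above. At 6 h the genes of this family had a median log2 fold change of 1.29 on the TMM scale (8 tested, all higher). On the microRNA scale it was 0.22 (6 higher and 2 lower). The lower share at 6 h thus holds only for the denominator without structural copies, which was added after seeing the data.

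The cluster of MIR183, MIR96 and MIR182 held 4.55% ± 0.559 against 2.79% ± 0.509 at 72 h, without overlap, and overlapped at 6 h and 2 weeks. The MIR21, MIR221 and MIR222 genes, often high in tumors, held 4.68% ± 1.40 against 5.35% ± 2.41 at 6 h and 1.46% ± 0.135 against 1.99% ± 0.641 at 2 weeks, with overlap. MIR21 itself held 4.24%, 1.77% and 2.18% against 3.18%, 5.90% and 1.69% at 6 h. Of 11 genes listed as induced by p53, the DNA damage response factor, 8 were included, and they held 0.288% ± 0.0141 against 0.290% ± 0.00824 at 6 h, with overlap at all 3 times. MIR34A, the best known of them, had 21 counts summed over the 18 libraries.

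Of the lists for other tissues given here, the muscle list reached the highest share. The muscle list of MIR1-1, MIR1-2, MIR133A1, MIR133A2, MIR133B and MIR206 had 5 of 6 genes included. It held 0.411% ± 0.0977 against 0.370% ± 0.158 at 6 h, 0.999% ± 0.704 against 0.711% ± 0.618 at 72 h and 0.851% ± 0.188 against 1.04% ± 0.629 at 2 weeks, with overlap each time, and its highest share was 1.81% in actinomycin D replicate 3 at 72 h. None of the 8 listed stem cell genes of the MIR302 and MIR371 groups and none of the 6 listed blood cell genes was included. MIR126, of endothelial cells, held 0 to 0.338% without structural copies, and the liver and neuron list (MIR122 and the MIR9 genes) up to 0.436%. MIR483, inside the IGF2 gene, held 0.117%, 0.145% and 0.152% against 0.0946%, 0.104% and 0.117% at 6 h, in which the groups nearly touched. The genes listed as independent of DROSHA, led by MIR320A, held 5.67% ± 2.11 against 3.30% ± 1.11 at 72 h, with overlap.

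How the counts were shared between near-identical genes limits what single genes show. There were 32 sets of genes with an identical mature strand, 70 genes in all. In 28 sets the summed counts of the genes were within 1.5-fold of each other. The MIR24 pair was the most uneven, with 7466 counts for MIR24-2 and 278 for MIR24-1, and MIR24-1 is listed at 0 in 11 of the 18 libraries. In 3 libraries 1 of MIR92A1 and MIR92A2 is listed at 0 while the other has 20 counts or more. Of 11 pairs of microRNA genes on opposite strands of the same locus, 5 had equal counts in all 18 libraries, such as MIR122 and MIR3591 with 195 each, so reads of the 2 strands cannot be told apart there. In addition, 191 of the 333 genes lie inside a protein-coding gene on the same strand.

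Mature microRNAs are too short for such total RNA libraries, so counts there are taken to come from longer transcripts. These can include host gene transcripts, since 191 of the 333 genes lie inside a protein-coding gene on the same strand. Their origin was not tested. MicroRNA genes took 0.00533% to 0.0134% of RNA counts. edgeR called 0 of 45 microRNA genes at 6 h, 0 of 16 at 72 h and 0 of 32 at 2 weeks, against 0%, 0.00472% and 0% of all genes. Unadjusted p-values under 0.05 were found for 3, 0 and 1 of them, against 8.21%, 13.1% and 8.93% of all genes. At 2 weeks the titles and the library names of the RNA libraries give opposite treatments, so the groups are called by library name.

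MIR3648-1 and MIR3648-2 had the 2 lowest unadjusted p-values among the microRNA genes in RNA at 6 h. They are near-identical copies on chromosome 21 (GRCh38 chr21:8208473-8208652 and chr21:8986999-8987178, plus strand), in regions related to ribosomal DNA, and MIR3648-1 lies inside the lincRNA FP671120.1. The strand printed here shows their base composition, rich in G and C.
MIR3648-2: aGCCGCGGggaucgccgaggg

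MIR3648-1 had 68, 44 and 25 counts with actinomycin D and 194, 165 and 200 with DMSO (0.760 CPM ± 0.388 and 2.90 CPM ± 0.388, SD, n = 3). MIR3648-2 had 44, 29 and 16 against 135, 113 and 131 (0.494 CPM ± 0.252 and 1.96 CPM ± 0.210). The groups lie far apart in both genes, with log2 fold changes of -1.96 (SE 0.34) and -2.02 (SE 0.35), but edgeR's adjusted p was 0.182 for each, so neither was called. DESeq2 gave adjusted p-values of 1.74e-05 and 8.71e-05. The range over 9 alternatives was 1.74e-05 to 0.574 for the first and 8.71e-05 to 0.574 for the second, and 1 of the 9 called them. In all 6 RNA libraries of this time point a value of 3 was more frequent than 1 or 2, so 1 fragment may be worth more than 1 count there.

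At 72 h both genes had 0 to 3 counts per RNA library. At 2 weeks MIR3648-1 had 6, 8 and 8 counts in the libraries named actd and 13, 23 and 19 in those named dmso (log2 -1.24, SE 0.53, adjusted p = 0.553, edgeR). In the footprint libraries the sums over all 18 were 28 and 25 counts, too few for a test at any time point.

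**Figure D5:**
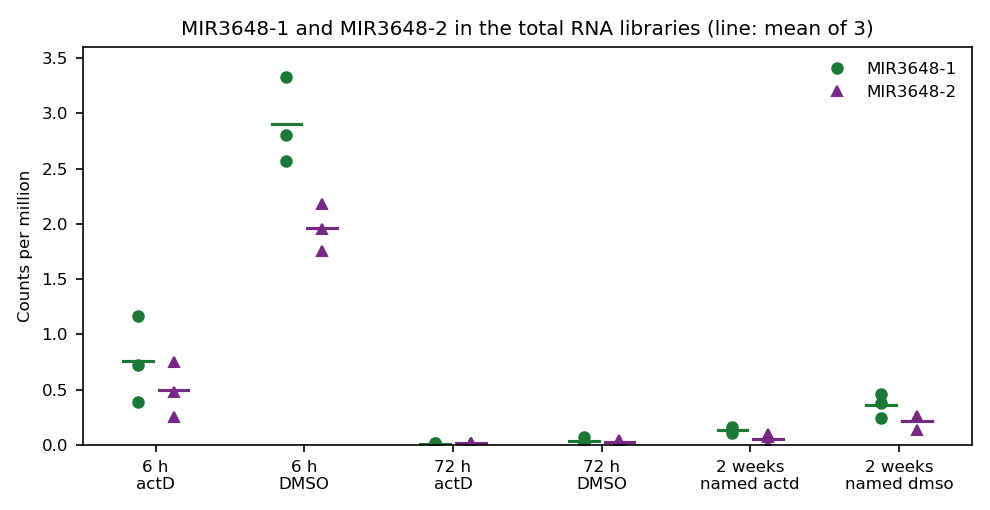
CPM of MIR3648-1 (green circles) and MIR3648-2 (purple triangles) in the 18 total RNA libraries by group, with a line at the mean of 3. At 6 h the actinomycin D libraries lie below all DMSO libraries, between 0.250 and 1.16 CPM against 1.76 to 3.33 CPM.

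Genes of the microRNA machinery were measured as messenger RNA. Of 22 listed genes, all in the tables, 22 were tested in RNA at each time point. In footprints only 3 were tested at 6 h, 6 at 72 h and 5 at 2 weeks, and DROSHA, DGCR8 and the AGO genes were not among them. Of the genes tested, 0 were called in RNA or in footprints at any time point. XPO5, the exporter of hairpin precursors, had log2 fold changes of -0.45 (SE 0.19, adjusted p = 0.602) in RNA at 6 h, -0.85 (SE 0.32, adjusted p = 0.344) in RNA at 72 h and -1.31 (SE 0.33, adjusted p = 0.0664) in footprints at 72 h, by edgeR. DICER1, which cuts the hairpins, had 0.27 (SE 0.16), -0.08 (SE 0.20) and 0.26 (SE 0.39) in the same 3 fits, and LIN28B, which blocks let-7 processing, 0.16 (SE 0.15) and 0.14 (SE 0.22) in RNA at 6 h and 72 h.

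Whether the effect of actinomycin D differed between time points was tested as an interaction over 2 tables at a time. It called 0 of 188 microRNA genes for 72 h against 6 h, 0 of 55 for 2 weeks against 72 h and 0 of 215 for 2 weeks against 6 h, with backgrounds of 0%, 0.0532% and 0% of all genes. At an unadjusted p under 0.05 there were 1, 11 and 3 genes, against 6.54%, 7.55% and 3.67% of all genes. In the second of these tests 54 of 55 genes had a lower effect at 2 weeks than at 72 h, with a median of -3.04, and all 11 with an unadjusted p under 0.05 were among them. Without DMSO replicate 3 of the 2-week table, 45 of 60 were lower, with a median of -0.85 and 3 at an unadjusted p under 0.05, of which 2 were higher. Without actinomycin D replicate 3 of the 72 h table the median was -1.64, with 2 at an unadjusted p under 0.05. MIR1246 had an interaction of 2.84 (SE 0.86) for 2 weeks against 6 h, with an adjusted p of 0.996 by edgeR and 0.0209 by DESeq2.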

How the data were processed

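The authors deposited 1 table per assay and time point, with whole-number estimated counts (expected counts) per gene for 6 libraries each. The submitters' processing notes name HISAT2, StringTie and hg38, without versions. How multiply mapped reads and strand were treated, and how many reads 1 count stands for, is not given in the sources used here. Identifiers were matched without version to GENCODE release 29 (99.4% matched in the footprint tables). The members and lists were chosen with earlier results of these data known.

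Each table was fitted whole in R 4.3.3. The quasi-likelihood functions of edgeR 4.0.16 were used after TMM scaling and filterByExpr, with Benjamini-Hochberg adjustment at 0.05 and no replicate block. A second fit used the microRNA counts as library size. Interactions joined 2 tables. DESeq2 1.42.0, other filters and denominators, library totals and leaving out single libraries were alternatives. Non-overlap was read among genes with a mean of at least 20 counts over the 6 libraries of a time point. Scripts were tested on simulated data. Standard errors come from the fold change and its F statistic.

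Named genes were the 12 with the highest mean share, those called on either scale or in an interaction, the 3 largest differences per direction and time among genes without overlap, the 3 neighbours on each side of the limit of 20 counts, and up to 4 per list. Any further gene was picked with its values in view. The total per library was 152556 to 1281039 footprint counts and 40221994 to 69240041 RNA counts. Shares carry counting error besides the spread shown, and reads copied by PCR are not independent. RNA groups at 2 weeks follow the library names. The value of 1 listed marker gene is not reported here.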

Additional observations from a re-analysis of the deposited data

How the results depend on the processing

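Replicate numbers did not pair the libraries (correlations of deviations between same-numbered libraries were not all over 0.1 at any time), and with a replicate block 0 of 18 genes were called at 72 h on the TMM scale, against 1 without it. No other call changed with that block. On the TMM scale at 72 h, 0 genes were called with a looser filter and 0 with library totals, 7 with DESeq2, and 0 to 4 when each library was left out. On the microRNA scale at 72 h, a denominator without MIR6087 called 2 of 18 (MIR6087 and MIR3654, both lower). The same fit called 1267 of all 2426 genes, 1255 of them lower. Leaving out 1 library gave 0 to 1 on the microRNA scale at 72 h and 0 to 1 at 2 weeks. The call at 72 h came without DMSO replicate 3, beside 86 of all 2426 genes. Those at 2 weeks came without DMSO replicate 1 or 3, beside 2 and 7 of all 1598 genes. In RNA at 6 h DESeq2 called 2 of 45 microRNA genes, beside 197 of all 22669 genes, and leaving out 1 library gave 0 to 1. DESeq2 called 3 of 215 microRNA genes (MIR335, MIR1246 and MIR103B2) in the interaction of 2 weeks against 6 h, beside 6 of all 2209 genes. The microRNA share of the library differed by 11.8, -0.903 and 0.153 percentage points at 6 h, 72 h and 2 weeks. Without MIR6087 these differences were 1.2 at 72 h and -0.309 at 2 weeks. With each library left out in turn, the 6 h difference ran from -4.31 to 28.1, the 72 h difference from -2.16 to 0.198 and the 2-week difference from -1.16 to 2.23. The count of genes without overlap, 17, 5 and 0, was 24 to 53, 5 to 24 and 0 to 8 with 1 library left out, where 2 libraries against 3 separate more easily. With a denominator without MIR6087 it was 0 at 72 h and 2 at 2 weeks, and without structural copies, a denominator added after seeing the data, 7 at 2 weeks. The TMM results at 6 h and 2 weeks, the microRNA scale at 6 h and the RNA results at 72 h and 2 weeks had 0 calls under each alternative run. The cause of these shifts was not tested. DMSO libraries at 72 h, with 197 to 447 counts outside structural copies, limit all single-gene shares of that time point.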

Other observations

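The following genes were picked with their values in view. MIR335, inside MEST on the same strand, had 0, 3878 and 509 counts with actinomycin D and 0, 0 and 0 with DMSO at 6 h, and 14, 37 and 91 against 0, 0 and 193 at 2 weeks. MIR3609, inside TRRAP, had 1, 0 and 374 counts against 0, 1 and 3 at 72 h, so nearly all of its counts at that time came from actinomycin D replicate 3. MIR1-1, a microRNA of heart and skeletal muscle, held 0.816% of the microRNA counts without structural copies in that library, against 0.200% and 0.218% in the other treated libraries at 72 h.

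MIR1246 was also compared with RNU2-57P, a U2-type gene, since both can receive the same reads. At 6 h MIR1246 had 12.8, 10.2 and 8.49 counts per 100 counts of RNU2-57P with actinomycin D and 31.4, 29.8 and 31.7 with DMSO, without overlap. At 72 h the values were 31.4, 34.4 and 14.7 against 8.58, 31.6 and 21.7, and at 2 weeks 17.2, 12.3 and 9.13 against 12.7, 9.84 and 6.71, with overlap both times. No test was made, because the pair was chosen after the values were seen.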
